A study of Mus musculus with 4 samples.

Results

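Nos2-positive macrophages were chosen by raw UMI counts, that is, by the number of distinct captured transcripts of a gene in a cell barcode. A barcode was a member when it held Nos2, together with Acod1, Cxcl9 or Il1a, at 1 UMI or more each, at least 5 UMIs of the myeloid gene Lyz2 and no UMI of Cd3e, Cd3d or Cd3g. Barcodes with fewer than 500 genes or over 10% mitochondrial UMIs were left out first. The rule found 169 members among 30053 barcodes, or among 17367 kept cells with the same Lyz2 and CD3 limits. By library there were 9 members after PBS, 52 on day 1, 104 on day 3 and 4 on day 7 after cisplatin.

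The study transplanted TC-1 cells, a mouse lung epithelial tumour line, under the skin of wild-type mice of the strain labelled C57/bl6. Once tumours covered 40 mm², mice received PBS or a single intraperitoneal injection of the DNA-crosslinking drug cisplatin at 6 mg/kg. The 4 libraries are PBS and cisplatin at 1, 3 and 7 days, with 1 library per group and with no number of pooled mice and no collection day for PBS in the labels. The sort gate was CD45+, lineage-negative, CD90+ and CD127+, and the labels call the cells innate lymphoid cells, yet most kept barcodes were macrophages by their transcripts. All values below therefore describe single libraries with no replicate check. Treatment, day, tumour age, sort and library cannot be told apart, and every interval covers counting error only.

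As background, Nos2 encodes inducible nitric oxide synthase, which makes nitric oxide from arginine and is a classical product of mouse macrophages exposed to interferon-gamma together with NF-kB signals. Acod1 makes itaconate from a citric acid cycle intermediate, Cxcl9 attracts T and NK cells that carry Cxcr3, and Il1a encodes interleukin-1 alpha, a cytokine and alarm signal. In tumours such macrophages are known both for killing tumour cells and for restraining T cells through nitric oxide and arginine use.

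In the mm10 annotation (GENCODE vM21) Nos2 lies on the plus strand at chr11:78920787-78960254 and Acod1 on the plus strand at chr14:103046977-103056573. Cxcl9 lies on the minus strand at chr5:92321347-92328079 and Il1a on the minus strand at chr2:129299610-129309972. All are protein-coding genes. Because the rule takes cells in which these genes occur together, the RefSeq promoters of Acod1, Cxcl9 and Il1a (GRCm38.p6, from 250 bases before to 50 after the start of each gene) were searched on both strands for the kappa B form (GGG, any 5 bases, CC) and for the interferon-gamma activated form TTCNNNGAA. The kappa B form occurred in 50.8% of 32851 promoters of this length and TTCNNNGAA in 8.30%. Bases 190 to 41 before the start are shown for the pair of genes with a match, with the matches in capitals.
Acod1, chr14:103046822-103046971, plus strand: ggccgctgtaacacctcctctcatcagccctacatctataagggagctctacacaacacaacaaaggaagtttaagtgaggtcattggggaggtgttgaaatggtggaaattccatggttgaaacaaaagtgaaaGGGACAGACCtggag
Cxcl9, chr5:92328120-92328269, minus strand: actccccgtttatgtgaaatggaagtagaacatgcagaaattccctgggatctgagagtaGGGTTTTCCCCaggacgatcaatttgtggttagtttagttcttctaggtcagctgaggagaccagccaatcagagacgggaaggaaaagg
In Acod1 the match GGGACAGACC spans bases 55 to 46 before the RefSeq start, which lies downstream of the GENCODE start given above. In Cxcl9 the capitals run from base 130 to base 120 before the start and hold overlapping matches. At GGGTTTTCCC the kappa B form is met on both strands, though with different letters on each. Il1a had no match to either form in this window, and TTCNNNGAA was not found in these 3 promoters. The Nos2 promoter was not searched. A match describes letters in the sequence and is no measurement of binding.

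Macrophage transcripts were found in every member, though few in the deepest day 3 barcode described below. Of 12 macrophage markers (Adgre1, Csf1r, the C1q genes and others) all 12 had UMIs in the PBS, day 1 and day 3 members, and the median member held 11, 11 and 10 of them. On day 7, Mertk was at 0 and the other 11 were found. Levels of a gene or list are given as CPM, its UMIs summed over the cells of a group and scaled to 1000000 UMIs of that group. The summed level of these markers was 24780, 27110, 22740 and 51340 CPM in the PBS, day 1, day 3 and day 7 members, against 29090, 36190, 29670 and 32490 in the other Lyz2-positive CD3-negative cells, called other cells below. The cell type name thus rests on 12 markers.

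Markers of several other cell types were at or near 0, and those of others were not. The neutrophil genes Retnlg, Ngp, Camp and Ly6g and the dendritic cell genes Flt3, Xcr1, Clec9a and Cd209a were at 0 in all members. The same neutrophil genes were also at 0 in the other cells of PBS and day 3. All neutrophil markers summed to 14.6, 71.6, 54.9 and 0 CPM in members, against 16.9, 59.1, 49.4 and 23.2 in other cells. On day 1, 23 of 52 members held no neutrophil marker. Epithelial markers gave 1 UMI in members on day 1, 1 on day 3 and none elsewhere. They were also near 0 in other cells, at 1.44, 2.98, 2.19 and 1.16 CPM. Whether this list detects RNA of the transplanted tumour cells was not tested, so the low counts do not show its absence. Conventional dendritic cell markers summed to 291, 351, 286 and 141 CPM in members, against 504, 531, 452 and 401 in other cells. Plasmacytoid dendritic cell markers summed to 699, 650, 827 and 1058 CPM, against 591, 695, 1095 and 671, with Siglech and Ly6d at 0 in all members and with Bst2, which interferon also induces, and Tcf4 among those found. Monocyte markers reached 714, 1011, 1509 and 917 CPM, against 218, 328, 1610 and 390. The NK and ILC1 list reached 186 CPM in day 3 members, mostly from Gzma, of which 53.6% lay in 1 cell. On days 1 and 3, T cell markers summed to 28.6 and 43.1 CPM in members, against 34.8 and 40.9 in other cells. The rule itself sets the CD3 genes among them to 0. Endothelial markers had 69.8 and 37.7 against 48.4 and 43.3, and fibroblast markers 77.0 and 31.2 against 179.8 and 55.9. B cell, mast cell and migratory dendritic cell markers also had UMIs in members of both days. Il7r, which encodes the sorted antigen CD127, was found in 4 of 9, 40 of 52, 47 of 104 and 0 of 4 members. Its level was 131, 272, 104 and 0 CPM, against 13.0, 44.0, 68.9 and 8.73 in other cells, so that the log2 ratio was 2.63 (2.38 to 2.87) on day 1 and 0.60 (0.29 to 0.90) on day 3. Thy1, which encodes CD90, had 14.6, 12.5, 9.69 and 0 CPM in members.

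The libraries hold 59915831, 82493626, 36587207 and 16153484 UMIs in PBS, day 1, day 3 and day 7 order. Members were about as deep as other cells on days 1 and 3, with a median of 9530 against 9280 UMIs and 7695 against 7272 UMIs. In PBS the medians were 6640 and 6506, and on day 7 they were 3586 and 5316. Their median share of mitochondrial UMIs was 3.00%, 2.28%, 1.96% and 1.00%, against 2.91%, 3.21%, 2.38% and 1.83% in other cells. Of all barcode sequences 103 occur in more than 1 library, and 3 members carry such a barcode, but no pair of members shares one.

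A pair of barcodes weighs heavily in sums over members. On day 3, 1 member held 100263 UMIs and 8534 genes, or 10.8% of all UMIs of the day 3 members, with 9.59% mitochondrial UMIs. It had 1 UMI each of Nos2 and Cxcl9 and 30 of Lyz2, while it gave 270 of the 273 Fst UMIs, 408 of the 412 Tm4sf1 UMIs, 180 of the 188 Sox4 UMIs and 58 of the 68 Top2a UMIs of its group. It also gave 100 of the 102 Hmga2 UMIs and 46 of the 46 Cdkn2a UMIs. Of macrophage markers it held 2 UMIs of Adgre1, 3 of Csf1r and 23 of C1qa, with 2 of Ptprc, which encodes CD45. Whether this barcode is a macrophage was not tested. On day 1, 1 member held 36682 UMIs, 6.57% of its group's total, with 15 of the 19 Tm4sf1 and 25 of the 50 Top2a UMIs. Many results are therefore also given without cells over 30000 UMIs, left out of the members and of the cells they are compared with, a limit added after seeing the data. In members against other cells on days 1 and 3 this moved the count of genes at least 2-fold higher or lower by at most 1 in each list, except for the IL-1 family, MHC class II, cell cycle and immediate early lists on day 3.

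Members were most frequent on day 3. Of the Lyz2-positive CD3-negative kept cells, they were 0.124% (0.0568 to 0.236%) after PBS. The share was 1.00% (0.750 to 1.31%) on day 1, 3.97% (3.25 to 4.79%) on day 3 and 0.173% (0.0471 to 0.442%) on day 7. As a share of all kept cells these were 0.111%, 0.695%, 2.10% and 0.144%. The intervals of day 1 and day 3 overlapped neither each other nor those of PBS and day 7, while PBS and day 7 overlapped. With each cell thinned at random to 3000 UMIs, 4 of 6574, 23 of 4787, 56 of 2434 and 2 of 1751 cells still met the rule, which is 0.0608%, 0.480%, 2.30% and 0.114%. Thinning left out 669, 399, 188 and 565 shallower cells. The sort gate was set for another cell type and can set these shares.

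Nos2 alone, without the other genes of the rule, was detected in 14, 72, 121 and 6 of the Lyz2-positive CD3-negative cells. These are shares of 0.193%, 1.39%, 4.61% (3.84 to 5.49%) and 0.259%. In T cells, which should lack most myeloid transcripts, it was found in 0 of 120, 1 of 151 (0.662%), 6 of 491 (1.22%, 0.450 to 2.64%) and 0 of 71. Taken as 3 counts, the zeros allow shares of up to 2.50% and 4.23%, and their exact upper limits are 3.03% and 5.06%. T cells were shallower, with median depths of 1917, 2804, 3313 and 1867 UMIs. At 3000 UMIs per cell on day 3 the shares were 2.79% (2.18 to 3.53%) of Lyz2-positive cells and 2.11% (0.776 to 4.53%) of T cells. At matched depth the day 3 shares of cells with a Nos2 UMI therefore overlapped, and a single Nos2 UMI does not by itself separate a member from background RNA.

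**Figure D1:**
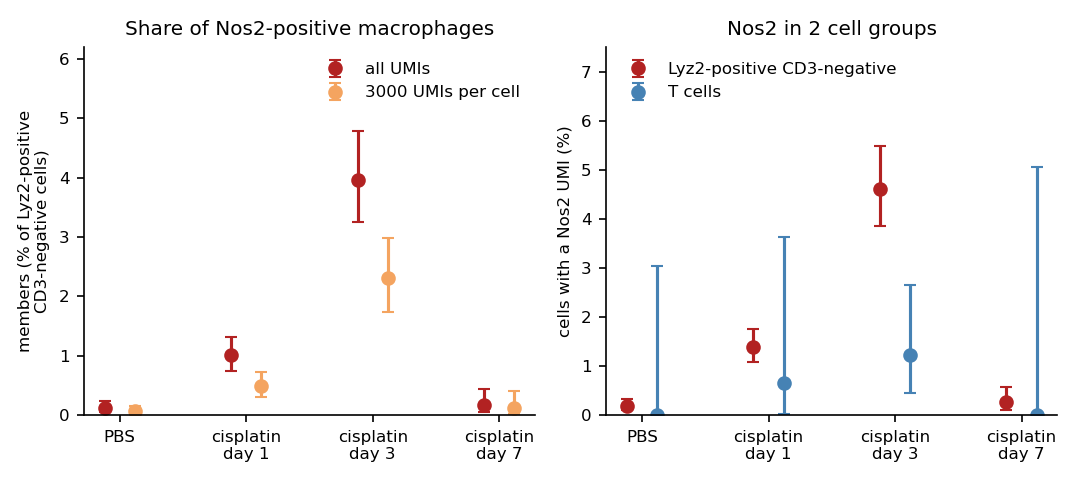
Left, members as a percentage of Lyz2-positive CD3-negative kept cells in each library, with all UMIs and after thinning to 3000 UMIs per cell. Right, percentage of Lyz2-positive CD3-negative cells and of T cells with a Nos2 UMI; points are shares and bars are exact 95% binomial intervals. The day 3 share of members stands highest in both countings, at 3.97% and 2.30%, and the T cell intervals in PBS and on day 7 are wide because only 120 and 71 T cells were counted.

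The other genes of the rule were more widely spread than Nos2. Acod1 was detected in 1.19%, 3.61%, 19.2% and 1.34% of Lyz2-positive CD3-negative cells, and in 0%, 0%, 5.50% and 0% of T cells. Cxcl9 was found in 9.42%, 19.2%, 46.1% and 8.90% of these cells and in 5.83%, 10.6%, 15.5% and 1.41% of T cells. Il1a stayed rare, at 0.690%, 2.10%, 3.55% and 0.604%, and was found in 4 of 491 T cells on day 3 (0.815%) and in no T cell of the other libraries. At 3000 UMIs per cell, Cxcl9 was in 6.37%, 10.3%, 33.2% and 6.28% of Lyz2-positive cells. Of T cells this deep it was in 1 of 12, 9 of 69 (13.0%, 6.14 to 23.3%), 37 of 285 (13.0%, 9.31 to 17.5%) and 1 of 9. At matched depth only the day 3 share of Cxcl9 thus lay above the T cell interval. Acod1 on day 3 was in 12.6% (11.3 to 13.9%) against 5.61% (3.24 to 8.96%) at that depth, and the Il1a shares of 1.97% and 1.05% (0.218 to 3.05%) overlapped. On day 3 the shares of these genes in Lyz2-positive cells were the highest of the 4 libraries.

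The following values chose the members and are given as a description. Most members sat close to the Nos2 limit, with 1 UMI in 91 of 169, 2 to 4 in 58 and 5 or more in 20, and with a highest value of 12 on day 3. Just outside the rule lay 3406 cells that failed only on Nos2, called Nos2-negative cells below. Other barcodes failed only on the companion genes (44), Lyz2 (13), CD3 (64) or mitochondrial UMIs (8). The summed Nos2 level of members was 175, 208, 256 and 353 CPM.

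Members rarely held all genes of the rule at once. Cxcl9 was present in 9 of 9, 46 of 52, 91 of 104 and 4 of 4 members, Acod1 in 3, 29, 70 and 1, and Il1a in 0, 4, 15 and 0. On day 1, 21 members had Cxcl9 alone, 21 had Cxcl9 with Acod1 and 6 had Acod1 alone. On day 3 these numbers were 31, 46 and 12, and 11 members held all 3 companion genes, against 2 on day 1. No member was admitted by Il1a alone. Cxcl9 counts per member ranged from 1 to 88 with a median of 10 in PBS, from 0 to 164 with a median of 13.5 on day 1, from 0 to 127 with a median of 11 on day 3 and from 1 to 4 with a median of 3 on day 7. The Lyz2 CPM was lower in members than in other cells, at 6103, 5569, 5679 and 9309 against 10130, 10080, 6674 and 13480.

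To describe what else set the members apart, their CPM were compared with the other cells of the same library. A gene passed the filter when at least 20 UMIs were expected in each group at the pooled rate, and was counted when it was at least 2-fold higher or lower. On day 1, 175 of 3788 genes (4.62%) were at least 2-fold higher and 210 (5.54%) at least 2-fold lower, with a median log2 ratio of -0.16 over all genes that passed. Under TMM, a scaling that trims genes of extreme ratio, these were 188 higher and 149 lower. On day 3, 97 of 5154 genes (1.88%) were higher and 115 (2.23%) lower, the median being -0.07. The PBS members gave 7 of 488 (1.43%) higher and 8 (1.64%) lower, or 2 and 35 under TMM. The day 7 members gave 4 of 115 (3.48%) higher and 15 (13.0%) lower, or 1 and 113 under TMM and 1 and 93 under DESeq2 scaling. With 9 and 4 members these last libraries show little beyond the most abundant genes. Genes too rare in other cells to pass the filter are named below as such, with their levels. The rule chose the members, so these counts describe them and support nothing further.

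The enzymes and transporters that feed nitric oxide synthase did not move as a block. Of 11 measured genes of arginine and tetrahydrobiopterin metabolism, 7 passed on day 1 with 1 at least 2-fold higher and 1 lower (median log2 ratio 0.57), and 10 passed on day 3 with 2 higher and none lower (median 0.01). Ass1, which rebuilds arginine from citrulline, the by-product of nitric oxide synthesis, stood at 72.8, 213, 312 and 282 CPM in members and at 27.8, 42.4, 144 and 42.3 in other cells. Its log2 ratio was 2.33 (2.05 to 2.60) on day 1 and 1.12 (0.94 to 1.29) on day 3. The Ass1 level was higher in members in all 4 libraries, but in PBS and on day 7 it rests on few UMIs and the gene did not pass the filter. Asl, the next enzyme of that cycle, had log2 ratios of -0.20 and -0.14.

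Arginine uptake and breakdown genes were also present. Slc7a2, a cationic amino acid transporter, had 51.9 CPM in 15 of 52 members on day 1 and 47.4 in 23 of 104 on day 3, against 2.62 and 5.83 in other cells, and was too rare to pass the filter. Its ratios of 4.31 (3.68 to 4.89) and 3.02 (2.49 to 3.53) on the log2 scale were among the highest of the list. Arg2, the mitochondrial arginase, stood at 0, 145, 62.4 and 212 CPM in members against 4.24, 14.4, 28.1 and 5.89, with a day 3 log2 ratio of 1.15 (0.74 to 1.55). Arg1, the cytosolic arginase that competes for the same substrate, was found in 18 of 52 members on day 1 and in 18 of 104 on day 3, at 122 and 93.7 CPM against 74.2 and 61.4. Its log2 ratios of 0.71 and 0.61 stayed below 2-fold. Gch1, the first enzyme of tetrahydrobiopterin synthesis, a cofactor of Nos2, had log2 ratios of 0.70 and 0.17.

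Interferon-gamma induced genes were higher in members on both days. Of 27 measured genes 10 passed on day 1, of which 9 were at least 2-fold higher and none lower (median log2 ratio 1.77), and 21 passed on day 3, of which 10 were higher and none lower (median 0.92). Gbp2, a guanylate-binding protein of cell-autonomous defence, stood at 801, 630, 737 and 1269 CPM in members against 37.5, 64.2, 172 and 50.3 in other cells. Its log2 ratio was 3.29 (3.13 to 3.45) on day 1 and 2.10 (1.98 to 2.22) on day 3. The member level was above that of other cells in every library, though Gbp2 did not pass the filter in PBS and on day 7. Gbp4, of the same family, had 117, 265, 226 and 212 CPM against 5.02, 13.5, 44.5 and 8.73. Its log2 ratio was 2.35 on day 3, and on day 1 it was too rare in other cells to pass.

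Other genes of this list followed the same order. Irf1, a transcription factor, stood at 131, 249, 247 and 353 CPM in members and at 30.7, 59.3, 117 and 41.8 in other cells, with log2 ratios of 2.07 (1.81 to 2.31) and 1.08 (0.88 to 1.27). Iigp1, an immunity-related GTPase, was at 189, 313, 256 and 1058 CPM against 12.5, 20.9, 76.9 and 16.4. For both genes other cells stood at a higher level on day 3 than on day 1, and the day 3 ratios were smaller. Slamf8, a surface receptor of macrophages, Serpina3g, a serine protease inhibitor, and Ly6i had day 3 log2 ratios of 2.22, 2.16 and 2.09.

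Cxcl10, like Cxcl9 a ligand of Cxcr3, stood at 2724, 1987, 3028 and 1834 CPM in members and at 244, 222, 1144 and 150 in other cells. Its log2 ratio was 3.16 (3.07 to 3.25) on day 1 and 1.40 (1.35 to 1.46) on day 3. On day 3, 29.3% of its member UMIs came from 1 cell, and without cells over 30000 UMIs the log2 ratio was 1.05.

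**Figure D2:**
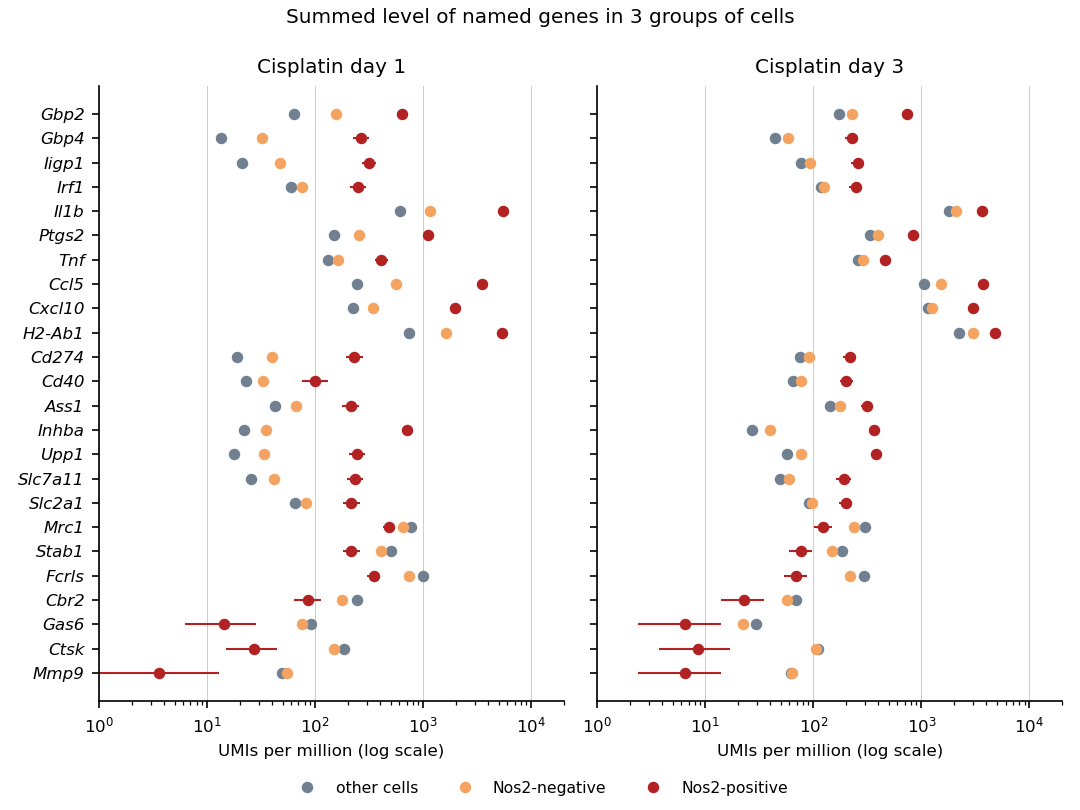
Summed level in CPM (log axis) of 24 genes in Nos2-positive macrophages, in Nos2-negative cells that hold Acod1, Cxcl9 or Il1a, and in the other Lyz2-positive CD3-negative cells, on days 1 and 3 after cisplatin. The other cells include the Nos2-negative cells. Lines are 95% counting intervals of the members. From Gbp2 down to Slc2a1 the members lie highest on both days, with Nos2-negative cells between, and from Mrc1 down to Mmp9 the members lie lowest.

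Type I interferon induced genes were higher in members on day 1 and close to the other cells on day 3. Of 24 measured genes 14 passed on day 1, with 9 at least 2-fold higher and none lower (median log2 ratio 1.34), while all 24 passed on day 3 with none at least 2-fold different (median 0.28), or 1 without cells over 30000 UMIs. Isg15, a ubiquitin-like antiviral protein, was at 408, 915, 1608 and 846 CPM in members against 93.0, 140, 1070 and 190. Its log2 ratio went from 2.71 (2.58 to 2.84) on day 1 to 0.59 (0.51 to 0.66) on day 3. Rsad2, which encodes the antiviral enzyme viperin, had log2 ratios of 1.86 and 0.81, and Irf7, a transcription factor that amplifies type I interferon, 1.45 and 0.11. Ifitm1, an interferon-induced membrane protein, was among the highest genes of the whole table on day 1, at 2189 CPM against 176 and a log2 ratio of 3.63 (3.55 to 3.72), and had 1.51 (1.42 to 1.61) on day 3.

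NF-kB factors and targets were higher in members, more widely so on day 1. Of 22 measured genes 20 passed on day 1 with 13 at least 2-fold higher (median log2 ratio 1.12), and 22 passed on day 3 with 4 higher (median 0.47). None was at least 2-fold lower. Ptgs2, the inducible enzyme of prostaglandin synthesis, stood at 146, 1117, 833 and 141 CPM in members against 51.3, 151, 332 and 85.9, with log2 ratios of 2.89 (2.77 to 3.01) and 1.33 (1.22 to 1.43). Sod2, the mitochondrial superoxide dismutase, was at 233, 335, 396 and 141 against 91.8, 105, 140 and 119. Its log2 ratios were 1.68 and 1.50, the smallest difference between days among the genes named in this list.

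Tnfaip2, a TNF-induced gene, had log2 ratios of 2.20 and 1.54. The cytokine gene Tnf stood at 262, 410, 455 and 141 CPM in members against 84.3, 131, 260 and 61.4, with log2 ratios of 1.65 (1.45 to 1.84) and 0.81 (0.66 to 0.95). Nfkbia, the inhibitor that NF-kB induces against itself, had 1.29 and 0.60. Of 13 prostaglandin and leukotriene genes, Ptgs2 was the 1 at least 2-fold different among the 4 that passed on day 1 and the 6 that passed on day 3. Without cells over 30000 UMIs Pla2g7, a phospholipase, was also past 2-fold on day 3, at a log2 ratio of 1.05 in place of 0.90.

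The IL-1 family was led by Il1b, the secreted form of interleukin-1. It stood at 728, 5415, 3625 and 2045 CPM in members and at 301, 610, 1814 and 367 in other cells. The log2 ratio was 3.15 on day 1 and 1.00 (0.95 to 1.05) on day 3, and all but 1 day 1 member and all but 4 day 3 members held Il1b. Il1rn, the receptor antagonist that blocks it, was at 306, 716, 667 and 423 against 140, 206, 358 and 245, with log2 ratios of 1.80 and 0.90. Nlrp3, an inflammasome sensor, had 1.78 and 0.54. Il1r2, the decoy receptor, was found in 24 of 52 and 36 of 104 members, with a day 3 log2 ratio of 1.30 (1.08 to 1.53), while Il18 had -0.58 and -0.03 and Casp1 0.06 and 0.33. Of 13 measured genes 4 of the 8 that passed on day 1 were at least 2-fold higher, and 1 of 11 on day 3, or 3 without cells over 30000 UMIs. The cytokines Il6 and Il12b gave 1 cell with a UMI of Il6 on each of days 1 and 3 and no UMI of Il12b.

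Chemokines split by gene. Of 19 measured, 14 passed on day 1 with 5 at least 2-fold higher and 1 lower (median log2 ratio 0.75), and 15 on day 3 with 3 higher and none lower (median -0.05). Ccl5, which recruits T cells, stood at 204, 3503, 3729 and 776 CPM in members and at 83.7, 244, 1066 and 429 in other cells. With log2 ratios of 3.84 (3.78 to 3.91) and 1.81 (1.75 to 1.86) it had the highest ratio of the list on both days. The neutrophil-attracting Cxcl2 was abundant, at 4326, 9898, 8113 and 1551 CPM against 2367, 2805, 5257 and 1507, with log2 ratios of 1.82 and 0.63, and Cxcl1 had 1.55 and 0.57.

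Monocyte-attracting chemokines did not share this pattern. Ccl2 had log2 ratios of 0.75 and -0.46, and 57.0% of its day 1 member UMIs came from 1 cell. Ccl7 had 0.19 and -0.97. Ccl8 had 1.07 on day 1, where 44.1% of UMIs came from 1 cell and where the ratio was -1.13 among cells of 4000 to 20000 UMIs, and -0.29 on day 3. Pf4, a platelet-type chemokine that tissue macrophages also make, was lower in members, at 1136, 1398, 1126 and 1269 CPM against 2342, 3546, 2193 and 2387, with log2 ratios of -1.34 (-1.45 to -1.24) and -0.96 (-1.05 to -0.87).

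Genes of MHC class II, which presents peptides to CD4 T cells, had the highest list median on both days. Of 10 measured genes 6 passed on each day. On day 1 all 6 were at least 2-fold higher (median log2 ratio 2.75) and on day 3 there were 2, or 4 without cells over 30000 UMIs (median 0.98, or 1.12). H2-Ab1, a beta chain, stood at 1296, 5342, 4824 and 5219 CPM in members and at 230, 733, 2241 and 654 in other cells, with log2 ratios of 2.87 (2.81 to 2.92) and 1.11 (1.06 to 1.15). Cd74, the invariant chain that guards the peptide groove, stood at 2068, 9982, 8227 and 19530 CPM against 458, 1578, 4164 and 2170. It was at least 2-fold higher in PBS, at a log2 ratio of 2.17, on day 1, at 2.66, and on day 7, at 3.17, and had 0.98 (0.95 to 1.02) on day 3. Ciita, the factor that switches these genes on, was found in 10 of 52 and 23 of 104 members and was too rare to pass.

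Among costimulatory and checkpoint ligands, Cd274 and Cd40 differed most. Cd274, which encodes PD-L1, the ligand of the inhibitory receptor PD-1, was found in 3 of 9, 40 of 52, 78 of 104 and 3 of 4 members. Its level was 102, 231, 218 and 423 CPM, against 5.19, 18.8, 75.4 and 13.8 in other cells, and the day 3 log2 ratio was 1.53 (1.31 to 1.74). On day 1 it was too rare in other cells to pass, with a log2 ratio of 3.62 (3.35 to 3.89). Cd40, a receptor that T cell help engages, stood at 248, 100, 202 and 353 CPM against 21.3, 22.9, 65.0 and 30.8, with a day 3 log2 ratio of 1.64 (1.41 to 1.86). Cd86 had log2 ratios of 0.96 and 0.40 and Cd80 0.66 on day 3. Of 14 genes, 1 of 7 that passed on day 1 and 2 of 10 on day 3 were at least 2-fold higher.

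**Figure D3:**
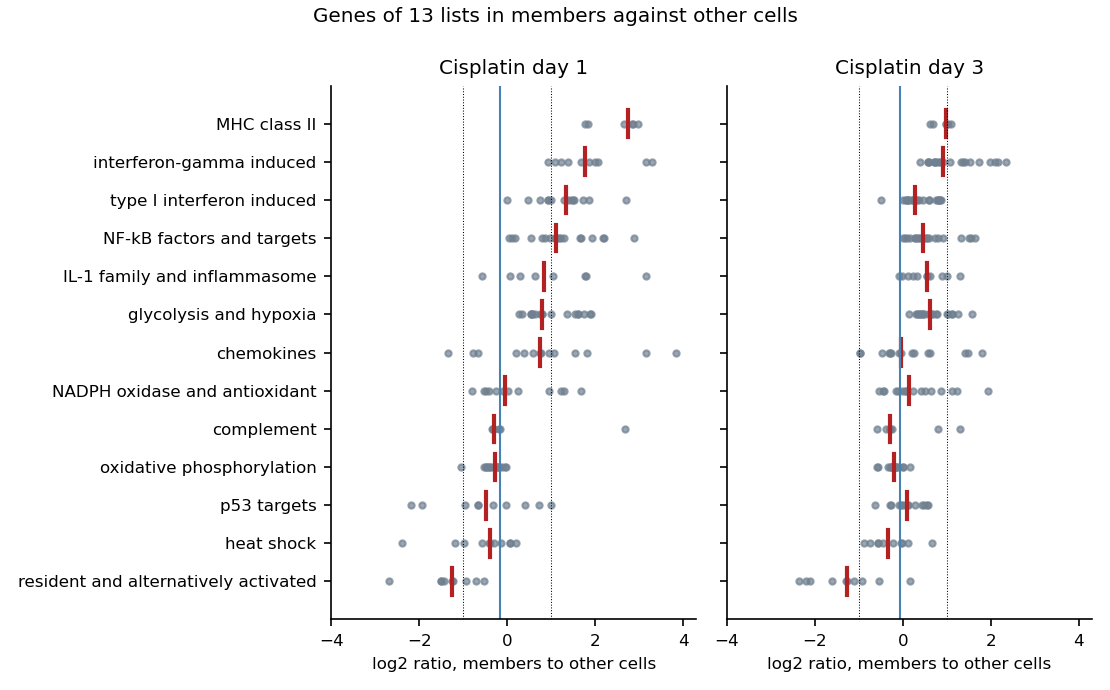
Log2 ratio of members to other cells on days 1 and 3 for the genes of 13 lists that passed the filter. Each grey point is a gene, the red bar is the list median, the blue line is the median of all genes that passed, and dotted lines mark 2-fold. The MHC class II median lies at 2.75 and 0.98, and that of resident and alternatively activated genes at -1.26 and -1.28.

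Glycolysis and hypoxia genes were higher on balance. Of 22 measured, 18 passed on day 1 with 7 at least 2-fold higher (median log2 ratio 0.79) and 20 on day 3 with 6 higher (median 0.62), and none was at least 2-fold lower. Slc2a1, the glucose transporter GLUT1, stood at 58.3, 217, 199 and 70.5 CPM in members against 49.2, 65.1, 91.2 and 31.4, with log2 ratios of 1.74 (1.46 to 2.00) and 1.13 (0.90 to 1.35). Vegfa, the vascular growth factor, had 1.91 and 0.67. Hk2, an inducible hexokinase, was at 244 CPM on day 1 and 77.5 on day 3, with log2 ratios of 1.60 and 0.37. Ndrg1, a hypoxia-induced gene, had 1.35 and 1.57, with 37.6% of the day 3 UMIs in 1 cell and 1.04 without cells over 30000 UMIs. Oxidative phosphorylation genes lay slightly below other cells, with medians of -0.27 over 17 genes and -0.20 over 18, and 1 gene at least 2-fold lower on day 1.

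Genes of oxidant production and defence were mixed. Cybb, the catalytic subunit of the phagocyte NADPH oxidase, stood at 393, 578, 618 and 494 CPM against 169, 180, 337 and 147, with log2 ratios of 1.68 and 0.87. Slc7a11, the cystine transporter that supports glutathione synthesis, was found in 30 of 52 and 49 of 104 members, at 235 and 191 CPM against 25.2 and 49.5, with a day 3 log2 ratio of 1.95 (1.71 to 2.18). Hmox1, haem oxygenase 1, had -0.53 and -0.15. Of 17 listed genes, 3 of 12 that passed on day 1 and 3 of 16 on day 3 were at least 2-fold higher, and none was lower.

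Inhba and Upp1 ranked highest on day 3 by the lower bound of the ratio, among the genes that the rule did not use, once cells over 30000 UMIs were left out. Inhba, which encodes the subunit of activin A, stood at 0, 714, 367 and 0 CPM in members and at 11.4, 21.8, 27.2 and 29.2 in other cells. It was found in 27 of 52 members on day 1 and in 32 of 104 on day 3, and 1 cell held 20.3% and 21.7% of its UMIs. The day 3 log2 ratio was 3.76 (3.56 to 3.95), or 3.55 without cells over 30000 UMIs, and on day 1 the gene was too rare in other cells to pass, with a log2 ratio of 5.03 (4.87 to 5.20). Upp1, uridine phosphorylase 1, stood at 350, 245, 379 and 141 CPM against 9.17, 17.6, 56.6 and 18.3, and had a day 3 log2 ratio of 2.74 (2.57 to 2.92). The Upp1 level was higher in members in all 4 libraries, but the gene passed the filter on day 3 only. The PBS and day 7 members held 68654 and 14180 UMIs in sum, so its levels there rest on few UMIs. AW112010 was at 2025, 2888, 2620 and 2750 CPM against 101, 241, 966 and 300, with log2 ratios of 3.58 and 1.44. The growth factor genes Areg and Hbegf also ranked high on day 3, but their log2 ratios went from 3.05 to 1.50 and from 2.94 to -1.28 without cells over 30000 UMIs in either group.

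Genes of resident and alternatively activated macrophages were lower in members. Of 17 measured, 6 of the 9 that passed on day 1 were at least 2-fold lower (median log2 ratio -1.26) and 7 of 10 on day 3 (median -1.28), with none higher. Mrc1, the mannose receptor CD206, stood at 495, 480, 123 and 70.5 CPM in members and at 735, 778, 300 and 328 in other cells, with log2 ratios of -0.70 (-0.88 to -0.52) and -1.29 (-1.57 to -1.02). Stab1, a scavenger receptor, was at 422, 217, 76.4 and 0 against 500, 505, 183 and 247. Fcrls, an Fc receptor-like scavenger molecule, was at 1107, 347, 68.9 and 846 against 1495, 989, 296 and 1242, with log2 ratios of -1.51 (-1.72 to -1.31) and -2.10 (-2.48 to -1.75). Cx3cr1, the fractalkine receptor, had log2 ratios of -0.52 on day 1, where 61.1% of its member UMIs lay in 1 cell, and -2.37 on day 3.

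Further named genes were also lower in members on both days. Ctsk, a collagen-degrading cathepsin, stood at 14.6, 26.9, 8.61 and 0 CPM against 98.9, 183, 111 and 65.9, with log2 ratios of -2.77 (-3.61 to -2.05) and -3.69 (-4.90 to -2.70), or -2.68 and -2.96 without cells over 30000 UMIs. Mmp9, a gelatinase, had -3.77 (-6.81 to -1.91) and -3.27 (-4.72 to -2.14). Cd207, which encodes langerin, had -3.96 and -2.47, from 2 cells with a UMI on day 1 and 3 on day 3. Gas6, a bridge between dying cells and the receptors that engulf them, had -2.69 and -2.19, and Cbr2, a carbonyl reductase, -1.50 and -1.60. Acp5, an acid phosphatase made by osteoclasts, had -1.80 and -1.44, but -0.88 on day 3 without cells over 30000 UMIs. These members held few UMIs of Ctsk, Mmp9, Cd207 and Gas6, and the intervals are wide.

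**Figure D4:**
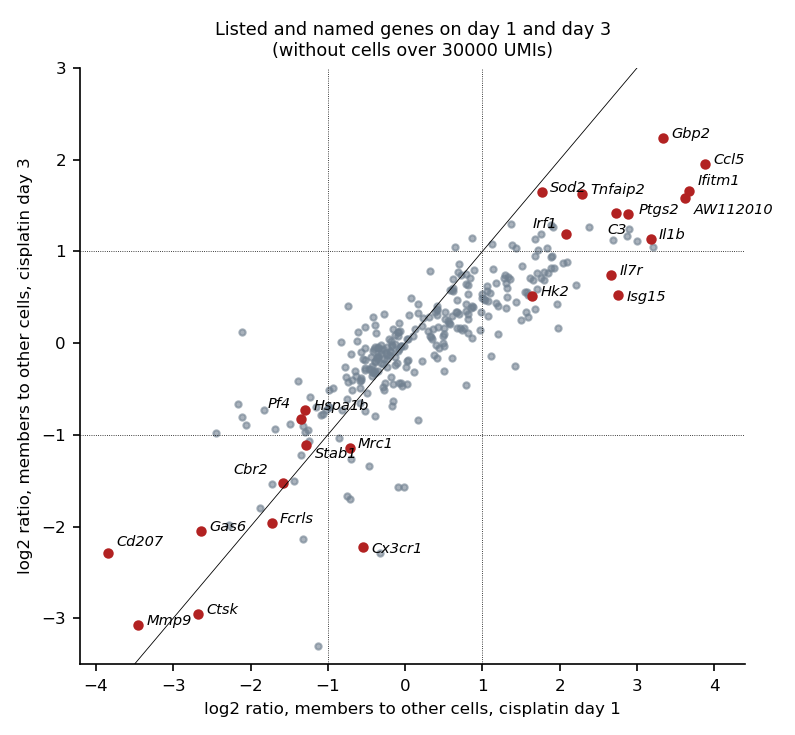
Log2 ratio of members to other cells on day 1 (x axis) and day 3 (y axis) for 310 listed or named genes that passed on both days, without cells over 30000 UMIs. Grey points are genes, red points are those labelled, the diagonal marks equal ratios and dotted lines mark 2-fold. The members and the other cells of each axis come from that day's library. Higher genes such as Ccl5, Il1b and Isg15 lie below the diagonal, with larger ratios on day 1, while Sod2 lies near it.

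The remaining lists held genes on both sides of other cells. The C1q genes stayed near other cells while C3, the central complement component, was at 160, 449, 426 and 141 CPM against 29.1, 69.8, 173 and 34.6, with log2 ratios of 2.69 and 1.30, the 1 complement gene at least 2-fold different among 7 and 8 that passed. Trem2, a lipid receptor of tumour macrophages, had log2 ratios of -0.67 and -0.65. Among 13 Trem2 and lipid handling genes that passed on each day, 1 was at least 2-fold higher and 3 lower on day 1, and 1 lower on day 3. Heat shock genes had medians of -0.40 and -0.34. On day 1, 2 of 11 were at least 2-fold lower, Hspb1 at -2.38 (-3.70 to -1.34) and Hspa1a at -1.19, and on day 3 none of 10, with Hspa1a at -0.75. p53 targets had medians of -0.48 over 10 genes and 0.09 over 14. On day 1 Gdf15, a stress-induced cytokine, had -2.17 and Phlda3 -1.94, the 2 at least 2-fold lower, while Cdkn1a, the cell cycle inhibitor p21, had log2 ratios of 0.99 and 0.56. Itaconate and citrate genes had medians of -0.32 and -0.17, and on day 1 the isocitrate dehydrogenase genes Idh3a and Idh2 were at least 2-fold lower, at -2.05 and -1.60, the 2 of 7 that passed. Of all genes that passed on day 1, 5.54% were at least 2-fold lower.

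Cell cycle genes on day 3 changed sides when the deepest cells were left out. With all members, 2 of 10 genes that passed were at least 2-fold higher and 1 lower (median log2 ratio 0.42). Without cells over 30000 UMIs, none of 7 was higher and 4 were lower (median -1.56). Top2a went from 0.94 to -1.56. Immediate early genes likewise had 3 of 13 at least 2-fold higher on day 3 with all members and none without those cells.

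Pattern sensors and other cytokines were higher in part on day 1, when 4.62% of all genes that passed were at least 2-fold higher, and less so on day 3, when 1.88% were. Of pattern sensors, 3 of 7 that passed on day 1 and 1 of 11 on day 3 were at least 2-fold higher, and of interferon, TNF and IL-1 receptors with their JAK-STAT partners 1 of 10 and 0 of 12. The sensors higher on day 1 were Clec4e at 2.07, Tlr2 at 1.56 and Cd14 at 1.54. Of other cytokines, 3 of 4 (Tnf, Tnfsf9 at 1.42 and Osm at 1.26) and 0 of 7 were higher. Of transcription factors of macrophage states 2 of 14 and 1 of 15 were higher, or 1 and 2 without cells over 30000 UMIs, with 1 lower on each day, and of iron handling genes 1 of 3 and 0 of 5. Proteases and matrix genes had 2 of 13 higher and 3 lower on day 1, and 2 of 14 higher and 2 lower on day 3, or 1 higher without cells over 30000 UMIs.

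The Nos2-negative cells, which met every other condition of the rule, were used as a closer comparison that was added after seeing the data. There were 1096 on day 1 and 1323 on day 3, with median depths of 10120 and 7633 UMIs. Against them 160 of 3769 genes (4.25%) were at least 2-fold higher in members and 154 (4.09%) lower on day 1, or 181 and 98 under TMM. On day 3, 85 of 5088 (1.67%) were higher and 78 (1.53%) lower, and 54 were higher without cells over 30000 UMIs. The members differed from Nos2-negative cells in many of the genes named above. Of 169 members 91 held only 1 Nos2 UMI, so some Nos2-negative cells may hold undetected Nos2 transcripts, which was not tested. Interferon-gamma induced genes had 12 of 16 at least 2-fold higher on day 1 (median log2 ratio 1.58, all genes -0.12) and 9 of 21 on day 3 (median 0.79, all genes -0.05). All 6 MHC class II genes were higher on day 1 (median 1.67) and none on day 3 (median 0.59). Glycolysis and hypoxia genes had 7 of 19 and 4 of 20 higher, and resident genes 4 of 9 and 3 of 9 lower.

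Single genes showed an order of 3 groups. The other cells include the Nos2-negative cells, which were 1096 of 5134 on day 1 and 1323 of 2518 on day 3. The steps between other and Nos2-negative cells are therefore not between separate groups. Inhba stood at 21.8, 35.4 and 714 CPM in other, Nos2-negative and Nos2-positive cells on day 1, and at 27.2, 39.6 and 367 on day 3, with log2 ratios to Nos2-negative cells of 4.34 (4.14 to 4.53) and 3.21 (3.00 to 3.42). Upp1 had 17.6, 33.5 and 245 on day 1 and 56.6, 76.0 and 379 on day 3. Gbp2 had 64.2, 155 and 630, then 172, 227 and 737. For Inhba the step between other and Nos2-negative cells was small beside the step to members, while for H2-Ab1, at 733, 1621 and 5342 and then 2241, 2974 and 4824, the Nos2-negative cells lay nearer the middle. Slc7a11 had log2 ratios of 2.50 and 1.69 and Cd274 of 2.55 and 1.24 against Nos2-negative cells.

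Members of the day 3 library were then set against those of day 1, a comparison also added after seeing the data. Of 3661 genes 111 (3.03%) were at least 2-fold higher on day 3 and 51 (1.39%) lower, and 69 were higher without cells over 30000 UMIs, with a median log2 ratio of 0.04. Type I interferon induced genes were higher on day 3, with 12 of 24 at least 2-fold higher and none lower (median 1.05). In other cells 22 of these 24 were at least 2-fold higher on day 3 (median 2.21), where 3.24% of all 11572 genes were and 8.32% were lower. Ifit1, an antiviral RNA-binding protein, went from 122 to 444 CPM in members, a log2 ratio of 1.87 (1.49 to 2.26), and from 46.8 to 263 in other cells. Rsad2 went from 301 to 759 in members, a log2 ratio of 1.34 (1.09 to 1.59), and from 82.7 to 433 in other cells. Irf7 went from 385 to 910 and from 141 to 842.

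By contrast, the genes of the interferon-gamma list held no gene at least 2-fold different between the 2 days among 21 that passed (median 0.16), although 21 of 25 were at least 2-fold higher on day 3 in other cells (median 1.24). The MHC class II list likewise had none of 6 past 2-fold in members (median -0.17) and 6 of 10 higher in other cells (median 1.33). The rule required Nos2 with Acod1, Cxcl9 or Il1a of the members of both days but not of other cells. It can therefore itself shape this contrast, which does not show that these genes are stable in members. The difference between members and other cells over time was not tested. Resident genes were lower on day 3 in both, with 7 of 9 at least 2-fold lower in members (median -1.55) and 11 of 15 in other cells (median -1.47). Mrc1 had a log2 ratio of -1.97 (-2.30 to -1.65) and Fcrls of -2.33 (-2.76 to -1.92) in members. Heat shock genes had 3 of 10 at least 2-fold lower (median -0.49), led by Hspa1b, which went from 564 to 101 CPM.

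Other genes also differed between the days within members. Inhba was lower on day 3, with a log2 ratio of -0.96 (-1.17 to -0.75), or -1.24 without cells over 30000 UMIs. Hk2 had -1.65 (-2.08 to -1.23), Il7r -1.38 and Arg2 -1.22 (-1.73 to -0.71). Cd40 had 1.01 (0.58 to 1.47) and Slfn4, an interferon-induced gene of myeloid cells, 1.91 (1.32 to 2.56). Ly6c2, a marker of inflammatory monocytes, went from 62.7 to 229 CPM in members, and from 6.87 to 297 in other cells. By summed CPM members were thus above other cells in Ly6c2 on day 1 and below them on day 3. By cells they were above on both days, with Ly6c2 in 14 of 52 (26.9%) and 53 of 104 members (51.0%), against 4.05% and 40.0% of other cells. All 8 markers of the monocyte list had UMIs in the members of both days. Their summed level was 1011 and 1509 CPM in day 1 and day 3 members, against 328 and 1610 CPM in other cells, and the part of monocytes in these differences was not tested.

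**Figure D5:**
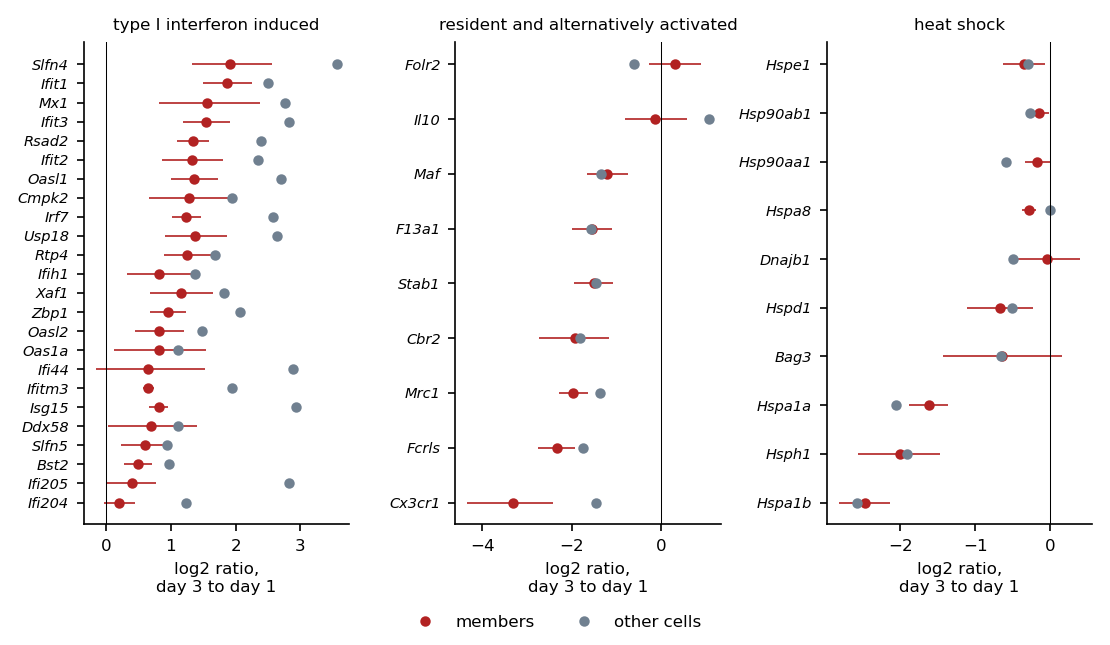
Log2 ratio of day 3 to day 1 after cisplatin for genes of 3 lists, in members (red, with 95% counting intervals) and in other cells (grey). Each cell group is compared across the same 2 libraries. Type I interferon induced genes lie above 0 in both groups and higher in other cells, with list medians of 1.05 and 2.21, and most resident and heat shock genes lie below 0 in both.

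The few PBS members allow only coarse comparisons with the later libraries. Against the 9 PBS members, day 1 members had 64 of 516 genes (12.4%) at least 2-fold higher and 17 (3.29%) lower, or 126 and 3 under TMM and 85 and 8 under DESeq2 scaling. Day 3 members had 83 of 532 (15.6%) higher and 15 (2.82%) lower, or 158 and 3 under TMM. With the highest doublet scores removed, which takes 3 of the 9 PBS members, day 1 gave 17 higher and 6 lower and day 3 gave 17 and 4. With at least 2 Nos2 UMIs the counts were 10 and 5 on day 1 and 9 and 4 on day 3. Day 7 members had 9 of 127 (7.09%) higher and 38 (29.9%) lower, or 8 and 94 under DESeq2 scaling. These comparisons share the PBS library. TMM moved the median of all genes by 0.30, 0.29 and -0.51 on the log2 scale. MHC class II genes had 5 of 6 at least 2-fold higher on day 1 and on day 3 (medians 1.94 and 1.77, or 1.08 and 0.78 with doublet scores removed). Other cells also differed from PBS in these genes. H2-Ab1 and Cd74 were found together in 17%, 53% and 78% of other cells in PBS, on day 1 and on day 3. The shares of members were 44%, 96% and 94%. Whether any difference from PBS is particular to members was not tested. Ccl5 and Il1b were among the highest on both days, from 204 and 728 CPM in PBS members, held by 3 and 5 cells. Spp1, which encodes osteopontin, ranked lowest on days 1 and 3, at 2476, 718, 689 and 282 CPM, with 50.6% of the day 1 and 50.9% of the day 3 UMIs in 1 cell. Its log2 ratios to PBS were -1.79 and -1.85, or -2.71 on both days without cells over 30000 UMIs, but 0.61 and 0.48 with doublet scores removed, so its direction is not settled.

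Members with Acod1 were set against members without it, leaving out cells over 30000 UMIs, as a split added after seeing the data. Acod1 is a gene of the rule and no member was admitted by Il1a alone, so every member without Acod1 held Cxcl9. Of the members with it, 6 on day 1 and 12 on day 3 held Acod1 alone, an imbalance that the rule sets. Acod1 detection also moves with depth, whose part was not tested. There were 29 and 22 on day 1, with median depths of 9685 and 8185 UMIs, and 70 and 33 on day 3. On day 1, 24 of 1684 genes (1.43%) were at least 2-fold higher and 19 (1.13%) lower, and on day 3, 29 of 1891 (1.53%) and 6 (0.317%). Ccl4, an inflammatory chemokine, had log2 ratios of 1.69 and 1.44, and Gbp4 1.33 and 1.17. Cxcl1 had 1.04 and 1.38, Serpina3g 1.03 and 1.57, and Arg1 1.99 and 1.08. Inhba had 1.18 on day 1 and -0.67 on day 3, and Ccl8 -3.82 and 1.49, so these genes did not keep their direction.

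Pairs of genes that mark other macrophage states were counted in members. Ly6c2 and Plac8, both monocyte genes, were found together in 8 of 52 day 1 members (15.4%, 6.88 to 28.1%) and in 27 of 104 day 3 members (26.0%, 17.9 to 35.5%), against 0.935% and 18.4% of other cells. Arg1 and Cxcl3 were found together in 7 of 52 (13.5%, 5.59 to 25.8%) and 5 of 104 (4.81%, 1.58 to 10.9%), against 2.16% and 1.79%. For both of these pairs the day 3 interval of members contained the share in other cells. Cx3cr1 and Hpgd were together in 0 of 52 and 0 of 104 members, against 8.08% and 1.03% of other cells, and the exact upper limits for members were 6.85% and 3.48%, of which the second contains the share in other cells. In PBS 1 of 9 and on day 7 1 of 4 members held both. Mki67 and Top2a, genes of dividing cells, were together in 4 of 52 and 2 of 104 members, against 5.63% and 3.57%. For Mki67 and Top2a the intervals of members, 2.14 to 18.5% and 0.234 to 6.77%, contained the share in other cells. Free RNA may add to these shares, and its part was not tested.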

How the data were processed

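Single-cell RNA was measured in 4 libraries, 1 per group (PBS and 1, 3 and 7 days after cisplatin). The deposited values are raw UMI counts for 31053 genes, per the file headers from software version 3.1.0. Cell Ranger 3.1.0, Seurat 3.1.2 (its role is not stated) and mm10 are named in the submitters' processing notes. The members and gene lists were chosen with earlier results of these data known.

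UMIs of all cells in a group were summed and scaled to CPM (UMIs per 1000000), and log2 ratios carry exact conditional binomial 95% intervals. Shares carry Clopper-Pearson 95% intervals. No p-value was computed, and cells were not treated as replicates. A group without a UMI was set to a floor of 3 counts. T cells are kept cells with at least 2 CD3 UMIs and fewer than 5 Lyz2 UMIs. Scrublet (scanpy 1.11.5) marked 0 cells at its automatic threshold, so it did not work and no doublets were removed. Removing the highest scores at 0.8% per 1000 barcodes took 3 of 9, 5 of 52, 2 of 104 and 0 of 4 members.

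Genes named are the 12 highest and 12 lowest by the bound nearer to a ratio of 1, up to 4 per list and the genes of the rule. Others were named after their values were seen. The genes were described with Python 3.11.15, numpy 2.4.6, scipy 1.17.1 and pandas 2.3.3. The code was tested on simulated counts. Alternatives were TMM (edgeR 4.0.16) and DESeq2 1.42.0 scaling, 5 expected UMIs, doublet removal, cells of 4000 to 20000 UMIs, at least 2 Nos2 UMIs, leaving out cells over 30000 UMIs and equal cell weights. The TMM and DESeq2 scaling were applied to summed counts only. A planned split by Cxcl9 and Il1a was not made, since no library had 50 cells of each kind. The Nos2 promoter was not searched.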

Additional observations from a re-analysis of the deposited data

Results flagged for a closer look

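One set of barcodes outside the comparisons carried the signal of the rule above its PBS level. Among kept barcodes with at least 5 Lyz2 UMIs and at least 1 CD3 UMI, 37 of 747 on day 3 (4.95%, 3.51 to 6.76%) met every other condition for a Nos2-positive macrophage. In the PBS library this was 1 of 367 (0.272%), on day 1 25 of 1760 (1.42%) and on day 7 1 of 237 (0.422%). The share of members among Lyz2-positive CD3-negative cells was 3.97% (3.25 to 4.79%) on day 3. It was 0.124% in PBS, 1.00% on day 1 and 0.173% on day 7. The intervals of these 2 kinds of barcodes overlapped in each library, so the pattern is not particular to barcodes with CD3. The day 3 barcodes had a median of 8790 UMIs, against 7695 in the members of that library. Whether they are doublets was not tested.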

How the results depend on the processing

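The counts of genes at least 2-fold higher and lower in members on days 1 and 3 against other cells moved by over 1.5 times only with 5 expected UMIs, to 357 and 891 on day 1 and 275 and 442 on day 3. In PBS the 7 higher became 2 (TMM), 62 (5 expected UMIs), 1 (at least 2 Nos2 UMIs) and 18 (equal weights), and the 8 lower became 35, 158, 21 and 23, or 17 without doublets. On day 7 the 4 higher became 1 (DESeq2), 1 (TMM), 22 (5 expected UMIs), 2 (4000 to 20000 UMIs) and 1 (at least 2 Nos2 UMIs), and the 15 lower 93, 113, 70, 4 and 1. Against PBS members, the 64 higher on day 1 became 126 (TMM), 344 (5 expected UMIs), 17 (doublets removed) and 10 (at least 2 Nos2 UMIs), and the 17 lower 3, 125, 6 and 5, with 8 under DESeq2 and 26 at 4000 to 20000 UMIs. For day 3 the 83 higher became 158, 392, 17 and 9 and the 15 lower 3, 105, 4 and 4. For day 7 the 9 higher became 46 (5 expected UMIs), 3 (4000 to 20000 UMIs) and 1 (at least 2 Nos2 UMIs), and the 38 lower 112, 7 and 2, with 77 under TMM and 94 under DESeq2. Day 3 members against day 1 gave 586 and 282 with 5 expected UMIs, and their 111 higher became 48 (4000 to 20000 UMIs), 49 (at least 2 Nos2 UMIs) and 69 (no cells over 30000 UMIs). Against Nos2-negative cells, day 1 gave 309 higher and 763 lower with 5 expected UMIs and 98 lower under TMM. Day 3 gave 279 and 365 with 5 expected UMIs, 52 higher at 4000 to 20000 UMIs, 54 without cells over 30000 UMIs, 53 higher and 123 lower with equal weights. The share of members became 0.0276%, 0.521%, 1.83% and 0.0432% with at least 2 Nos2 UMIs, 0.0414%, 0.482%, 2.33% and 0.0432% with at least 2 companion genes, and 0.480% on day 1 and 2.30% on day 3 at 3000 UMIs. Log2 ratios that changed sign were Ccl8 on day 1 (-1.13 at 4000 to 20000 UMIs) and, on day 3, H2afx (-0.083 at 4000 to 20000 UMIs, -0.20 with at least 2 Nos2 UMIs, -0.24 without cells over 30000 UMIs), Hbegf (-0.96, -1.21 and -1.28) and Slpi (-0.30 with at least 2 Nos2 UMIs). Against PBS, Spp1 changed sign with doublet scores removed, to 0.61 on day 1 and 0.48 on day 3. The cause of these changes was not tested. No paired analysis was possible because each group is 1 library, and no library could be left out. Of 1351 list medians computed under alternatives, 70 moved and 1281 did not. Depth limits PBS and day 7, with 9 and 4 members.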
